A study of Mus musculus with 6 samples.

Results

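The genes described here are the 10 fibulin, elastin and lysyl oxidase genes *Fbln1*, *Fbln2*, *Fbln5*, *Efemp1*, *Efemp2*, *Eln*, *Lox*, *Loxl1*, *Loxl2* and *Loxl3*, out of 55421 genes in the count table, where they were matched by symbol. They were chosen as a family on the difference in their levels between *Yap* cKO and control retinas, which is the comparison described here. Their differences between the groups are therefore given as a description, and no p-value of theirs is printed. Whether a member met the criteria of the fit across all genes is likewise description and no test of the family. The count table comes from bulk RNA sequencing of retinas of 2-month-old mice. The 3 control retinas (YR612, YR613 and YR615) carried the genotype Yapfl/fl, with floxed *Yap* alleles and no Cre, and the 3 *Yap* cKO retinas (YR711, YR713 and YR714) carried Yapfl/fl;RaxCreERT2. Control and *Yap* cKO mice alike had received 4-hydroxytamoxifen at postnatal days 10 and 14, and each retina is an independent biological replicate. Where 3 values are given for a group, they follow the order of the codes above.

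After birth, the *Rax*-driven Cre acts in Müller glia and in the non-pigmented epithelium of the ciliary body, where it recombines the floxed *Yap* alleles. The retina was lifted out after a cut below the ora serrata and removal of the lens, and the tissue holds cells of many kinds. In such bulk tissue, fewer cells of a type and less RNA per cell cannot be told apart.

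Elastic fibres give a tissue stretch and recoil. Elastin (*Eln*) is secreted as a soluble monomer and is laid down on a scaffold of fibrillin microfibrils, where lysyl oxidases, copper enzymes outside the cell, oxidise lysine side chains so that the monomers become cross-linked. Fibulins are secreted glycoproteins with rows of calcium-binding EGF-like domains, and several of them bring elastin, microfibrils and lysyl oxidases together. In the eye, such fibres are known from Bruch's membrane, the vessel walls and the lamina cribrosa, while the zonule that holds the lens is made of fibrillin microfibrils.

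*Yap1* itself checked the labels. Levels are given in TPM, that is, counts divided by exonic length and scaled to a common total in every retina. *Yap1* stood at 9.48, 9.52 and 9.83 TPM among controls and at 3.99, 3.76 and 3.94 TPM among *Yap* cKO retinas. The groups lay apart, at -1.36 ± 0.093 (log2 fold change and standard error) and an adjusted p of 0.000282 by the quasi-likelihood test of edgeR, adjusted after Benjamini and Hochberg. Totals of 24261799 to 35067068 fragments per retina were assigned to genes, and 16575 genes passed the filter on low counts. A gene is called differentially expressed below where its adjusted p was at most 0.05, its fold change at least 1.5 and its mean level at least 5 TPM in 1 of the groups. Called in this way were 132 genes, 35 of them higher in *Yap* cKO retinas and 97 lower.

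In control retinas, a comparison that does not use the genotype, fibulins were by far the most abundant of these transcripts. *Efemp1* led with 126 ± 3.53 TPM (SD, n = 3), followed by *Fbln1* with 43.8 ± 8.92 TPM and *Efemp2* with 10.7 ± 0.284 TPM. *Loxl1* was the highest lysyl oxidase with 7.91 ± 2.18 TPM. Each of these 4 genes lay above the next without overlap between retinas. *Loxl2* (2.90 ± 0.211 TPM), *Loxl3* (2.68 ± 0.318 TPM), *Eln* (2.44 ± 0.398 TPM) and *Fbln5* (2.11 ± 0.304 TPM) followed, and each overlapped its neighbour in this order. *Fbln2*, at 0.834 ± 0.255 TPM, lay below all of them, and *Lox* was the lowest at 0.301 ± 0.129 TPM. In *Yap* cKO retinas the order by mean level had *Efemp2* in place 2 and *Fbln1* in place 3, and *Eln* had moved from place 7 to place 5. In all, 6 of the 10 genes had means below 5 TPM in both groups and so missed the level criterion.

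Of the 10 genes, 9 passed the filter on low counts, 3 with a higher and 6 with a lower estimate in *Yap* cKO retinas. Called were 2 of them, *Fbln1* and *Efemp2*, both lower, while 0.796% of all tested genes met the criteria in either direction and 0.585% as lower genes. By the adjusted p alone, 4 passed, namely *Fbln1*, *Fbln5*, *Efemp1* and *Efemp2*, all lower and all fibulins, against 1.49% of all tested genes in either direction and 0.989% as lower genes. There was no overlap between the groups' retinas for 7 of the 9 genes, 6 of them lower, against 24.3% of all tested genes in either direction and 9.04% as lower genes. The median log2 fold change was -0.58 over the 9 genes and 0.0017 over all tested genes. Nothing is read from these counts, since the genes were chosen on the same comparison. The plot of TPM by retina shows every value.

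**Figure D1:**
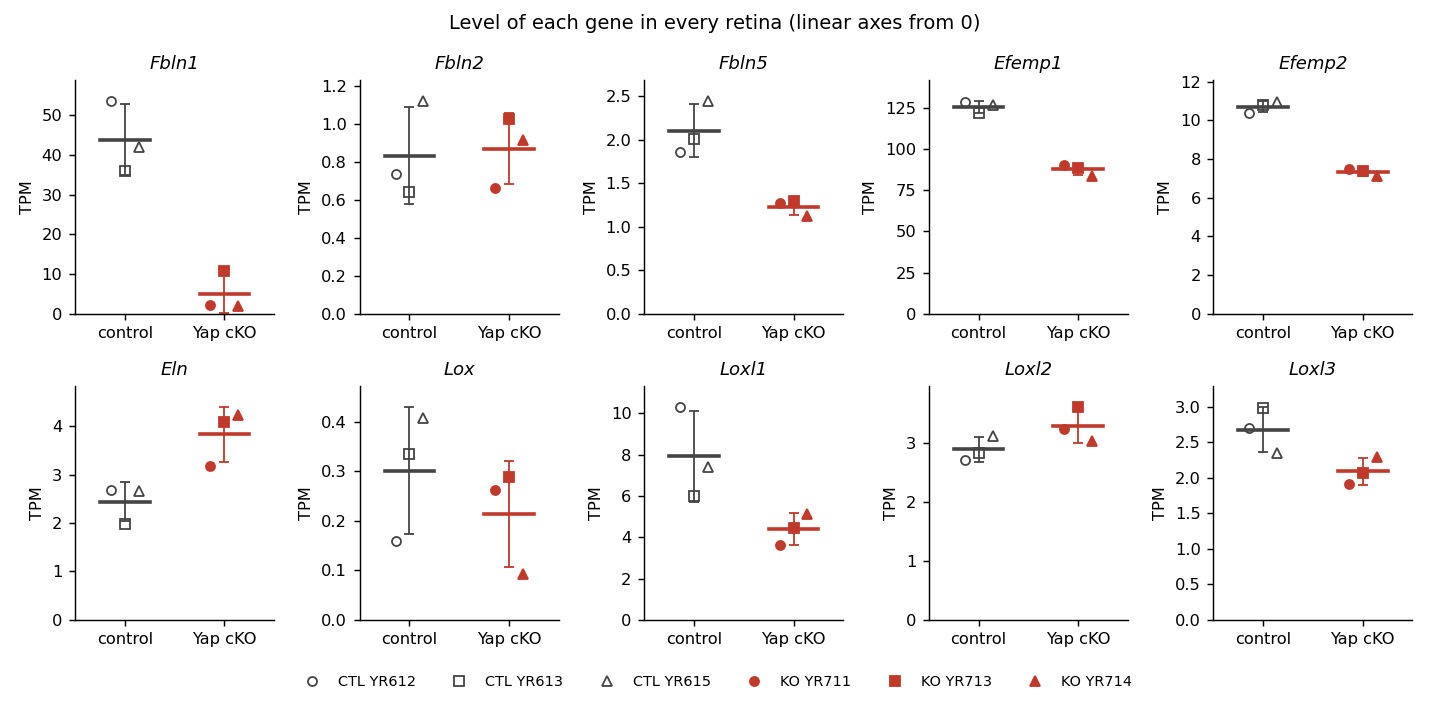
Level of each of the 10 genes in TPM (vertical axes, linear from 0, with a different scale in each panel) in the 3 control retinas (open grey symbols) and the 3 *Yap* cKO retinas (filled red symbols); horizontal bars are means and vertical bars are SD over 3 retinas. *Fbln1* has the widest separation, with 1 *Yap* cKO retina (YR713, 10.7 TPM) above the other 2, whereas the points of *Fbln2*, *Lox* and *Loxl2* overlap between the groups.

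*Fbln1* codes for fibulin-1, a fibulin that binds fibronectin, laminin and aggrecan-type proteoglycans in the matrix and in basement membranes. The gene (ENSMUSG00000006369) lies on the forward strand of chromosome 15 of GRCm38, from 85205949 to 85286535, with 4368 exonic bases. Controls held 53.5, 36.0 and 41.9 TPM of it, and *Yap* cKO retinas held 2.29, 10.7 and 2.01 TPM. Every *Yap* cKO retina was far below every control, and their mean was 11.4% of the control mean. Within the *Yap* cKO group the highest retina, YR713, had 5.33 times the level of the lowest, whereas the controls spanned a ratio of 1.49. These levels rest on 1078 to 1543 fragments per control retina and on 64, 407 and 60 fragments in the *Yap* cKO retinas. On the log2 scale the fold change was -3.15 (standard error 0.51), the largest of the 9 genes. Without *Yap* cKO YR713 it was -4.41, and over the 6 fits without 1 retina it reached -2.79 at the other end. *Fbln1* no longer met the adjusted p criterion without control YR612 or without control YR615, where its log2 fold changes were -2.96 and -3.19.

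*Efemp2* codes for fibulin-4, which is required for elastic fibre assembly and for the cross-linking of elastin by lysyl oxidase. The gene (ENSMUSG00000024909, forward strand of chromosome 19, 5473954 to 5482517, 3788 exonic bases) had 10.4, 10.8 and 10.96 TPM in controls. In *Yap* cKO retinas it had 7.48, 7.37 and 7.11 TPM. The groups stood well apart, and within each group the highest retina exceeded the lowest by a ratio of only 1.05. The log2 fold change was -0.61 (standard error 0.10), a fold change of 1.52 that lies just inside the minimum of 1.5. Over the fits without 1 retina it ranged from -0.62 to -0.59, but *Efemp2* ceased to be called when YR612, YR615, YR711 or YR713 was the one removed. It was also lost when each retina was corrected for gene length, which put the log2 fold change at -0.58, below the fold change minimum.

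The promoters of the members that met every criterion are shown because YAP acts on DNA through TEAD factors, which bind promoters and enhancers. Promoters from RefSeq (GRCm38.p6) were at hand for 5 of the 10 genes (*Fbln1*, *Fbln2*, *Fbln5*, *Efemp1* and *Efemp2*), as 9 windows that run from 250 bases before to 50 bases after a transcription start. The windows printed are those whose start lies nearest the start of the gene in the count table, written along the forward strand with the base at the start in capitals.
Fbln1, chr15:85205699-85205998: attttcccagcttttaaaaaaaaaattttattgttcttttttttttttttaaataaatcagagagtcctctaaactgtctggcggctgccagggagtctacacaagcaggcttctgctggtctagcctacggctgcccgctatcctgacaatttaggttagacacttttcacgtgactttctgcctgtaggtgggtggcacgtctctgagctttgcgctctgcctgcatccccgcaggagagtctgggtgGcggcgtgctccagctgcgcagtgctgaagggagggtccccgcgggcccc
Efemp2, chr19:5473696-5473995: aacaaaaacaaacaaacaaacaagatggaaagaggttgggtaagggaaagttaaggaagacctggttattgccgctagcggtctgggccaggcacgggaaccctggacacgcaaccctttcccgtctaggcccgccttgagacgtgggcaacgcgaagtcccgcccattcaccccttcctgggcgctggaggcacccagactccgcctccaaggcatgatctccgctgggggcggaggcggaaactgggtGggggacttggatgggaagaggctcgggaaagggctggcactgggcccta
Their GC content was 51.7% for *Fbln1* and 60.3% for *Efemp2*, where the median over all promoters of the same length was 53.0%. The core of the TEAD motif, CATTCC, was searched on both strands, where it reads GGAATG on the other strand. It was in none of the 9 windows of the 5 genes, and 14.6% of the 32544 RefSeq promoters of this length hold it. These windows say nothing of sites further away.

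*Efemp1* codes for fibulin-3, a fibulin of basement membranes and of the matrix below the pigment epithelium, in which a human mutation causes an inherited macular dystrophy. The gene (ENSMUSG00000020467, forward strand of chromosome 11, 28853204 to 28926743, 2037 exonic bases) was the most abundant of the family in every retina. It had 129, 122 and 127 TPM in controls, and 90.4, 88.8 and 84.0 TPM in *Yap* cKO retinas. There was no overlap, and the *Yap* cKO mean was 69.7% of the control mean. The log2 fold change of -0.58 (standard error 0.075) is a fold change of 1.49, just outside the minimum, so *Efemp1* met the adjusted p criterion but not the fold change criterion. It crossed that minimum and was called without control YR613, without *Yap* cKO YR711, and with library sizes in place of TMM factors. Corrected for gene length, its value was -0.47.

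*Efemp1* and *Efemp2* held a nearly fixed proportion to each other. The TPM of *Efemp1* was 12.4, 11.3 and 11.6 times that of *Efemp2* in controls, and 12.1, 12.1 and 11.8 times in *Yap* cKO retinas. The *Yap* cKO ratios lay within the range of the control ratios. The proportion of *Fbln1* to *Efemp1*, in contrast, was 0.416, 0.296 and 0.330 in the controls and 0.0254, 0.121 and 0.0239 in the *Yap* cKO retinas, without overlap.

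*Fbln5* codes for fibulin-5, which binds elastin and cell-surface integrins and is required for elastic fibre assembly. The gene (ENSMUSG00000021186, reverse strand of chromosome 12, 101746565 to 101819055, 6911 exonic bases) had 1.86, 2.01 and 2.45 TPM in controls. In *Yap* cKO retinas it had 1.27, 1.30 and 1.12 TPM. All *Yap* cKO retinas were below all controls, at 58.4% of the control mean. This was a log2 fold change of -0.83 (standard error 0.16). Fits without 1 retina gave -0.89 to -0.71, and the length correction gave -0.91. *Fbln5* met the adjusted p and fold change criteria and missed the TPM minimum in both groups.

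*Fbln2* codes for fibulin-2, a basement membrane and vessel wall fibulin that overlaps with fibulin-5 in binding elastin. The gene (ENSMUSG00000064080, forward strand of chromosome 6, 91212455 to 91272540, 6370 exonic bases) had 0.738, 0.641 and 1.12 TPM in controls, and 0.664, 1.03 and 0.919 TPM in *Yap* cKO retinas. The groups overlapped throughout. With a log2 fold change of 0.0074 (standard error 0.27), its sign depended on the retina left out, over a range of -0.17 to 0.29. These levels rest on 27 to 57 fragments per retina.

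The plot of summed fibulin TPM shows what these differences did to the pool as a whole. The 5 fibulin genes summed to 195, 171 and 183 TPM in controls and to 102, 109 and 95.1 TPM in *Yap* cKO retinas, without overlap. The difference between the group means was -81.1 TPM, to which *Fbln1* contributed -38.8 TPM and *Efemp1* -38.1 TPM. The difference in TPM was thus about as large for *Efemp1*, with its modest fold change, as for *Fbln1*. *Fbln1* made up 23.8% ± 3.30 (SD, n = 3) of the pool in control retinas and 2.25%, 9.81% and 2.11% in the *Yap* cKO retinas, while the share of *Efemp1* was 68.8% ± 2.64 in controls and 86.0% ± 4.09 in *Yap* cKO retinas.

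**Figure D2:**
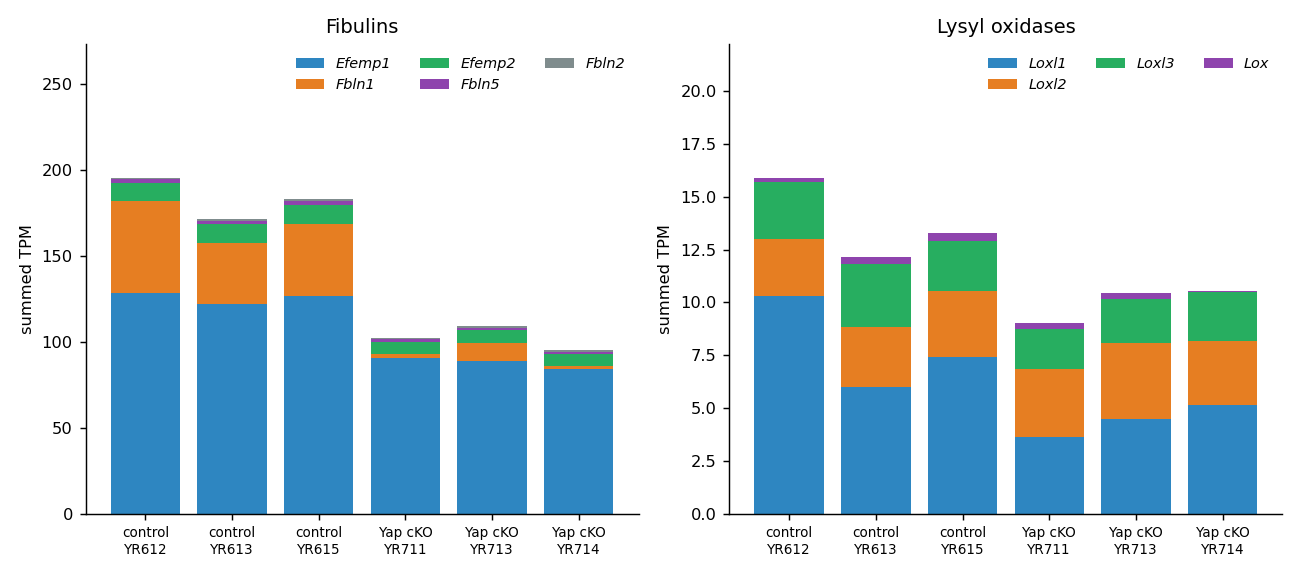
Stacked TPM of the 5 fibulin genes (left) and the 4 lysyl oxidase genes (right) in each retina, with linear axes from 0 and a different scale in each panel. In *Yap* cKO retinas the *Fbln1* segment is thin except in YR713, the *Efemp1* segment is shorter than in controls, and the *Loxl1* segment is shorter while *Loxl2* is about as tall as in controls.

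Elastin was the member whose level was higher in every *Yap* cKO retina than in any control. *Eln* (ENSMUSG00000029675, reverse strand of chromosome 5, 134702593 to 134747323, 8098 exonic bases) had 2.68, 1.98 and 2.67 TPM in controls and 3.19, 4.09 and 4.23 TPM in *Yap* cKO retinas. The groups did not overlap, although the gap between control YR612 and *Yap* cKO YR711 was narrow, and the *Yap* cKO mean was 157% of the control mean. Its log2 fold change of 0.59 (standard error 0.18) ran from 0.45 to 0.71 over the fits without 1 retina, and *Eln* did not meet the adjusted p criterion. *Eln* has the longest exonic sequence of the 10 genes, and the log2 fold change over all tested genes rose with exonic length (Spearman's rho 0.391 across genes, which are not independent replicates). After the length correction the value of *Eln* was 0.49. The ratio of *Eln* to *Fbln5* in TPM was 1.44, 0.988 and 1.09 in the controls and 2.52, 3.15 and 3.77 in the *Yap* cKO retinas. With *Eln* higher and *Fbln5* lower in every *Yap* cKO retina, this ratio could not overlap between the groups. It restates the differences of both genes and adds no further one.

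Among the lysyl oxidases, *Loxl1* is the one tied to elastic fibre upkeep, and variants of its human gene are associated with exfoliation glaucoma. *Loxl1* (ENSMUSG00000032334, reverse strand of chromosome 9, 58287738 to 58313186, 3297 exonic bases) had 10.3, 6.02 and 7.42 TPM in controls. It had 3.61, 4.46 and 5.15 TPM in *Yap* cKO retinas. All *Yap* cKO retinas were below all controls, with the closest pair being control YR613 and *Yap* cKO YR714. With a log2 fold change of -0.90 (standard error 0.23), *Loxl1* did not meet the adjusted p criterion in the fit of all 6 retinas. It met every criterion without control YR613 (log2 fold change -1.08), without *Yap* cKO YR714 (-1.04), with no filter on low counts, by DESeq2's Wald test and by edgeR's likelihood ratio test. The paper counts *Loxl1* among its differentially expressed genes.

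*Loxl2* and *Loxl3* cross-link fibrillar and basement membrane collagens as well as elastin. *Loxl2* (ENSMUSG00000034205, forward strand of chromosome 14, 69609068 to 69695834, 5405 exonic bases) had 2.72, 2.84 and 3.13 TPM in controls and 3.24, 3.61 and 3.03 TPM in *Yap* cKO retinas. These ranges overlapped, with a log2 fold change of 0.13 (standard error 0.14). A microRNA gene on the same strand shares 7 bases with its exons. *Loxl3* (ENSMUSG00000000693, forward strand of chromosome 6, 83034173 to 83052562, 4603 exonic bases) had 2.7, 2.98 and 2.35 TPM in the controls and 1.91, 2.07 and 2.29 TPM in the *Yap* cKO retinas. The groups did not overlap, but control YR615 and *Yap* cKO YR714 were close, and the log2 fold change of -0.41 (standard error 0.16) met neither the adjusted p nor the fold change criterion.

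*Lox*, the founding member of the lysyl oxidases and the main elastin cross-linking enzyme of large arteries, was close to the limit of detection. The gene (ENSMUSG00000024529, reverse strand of chromosome 18, 52516067 to 52529867, 4778 exonic bases) had 5, 11 and 15 fragments in controls and 8, 12 and 3 in *Yap* cKO retinas. These counts correspond to 0.159, 0.336 and 0.409 TPM and to 0.262, 0.289 and 0.0919 TPM, which overlapped. *Lox* did not pass the filter on low counts and was not tested.

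The 4 lysyl oxidases summed to 15.9, 12.2 and 13.3 TPM in the controls and to 9.02, 10.4 and 10.6 TPM in the *Yap* cKO retinas. The groups did not overlap, and *Loxl1* contributed -3.51 TPM to a difference of -3.78 TPM between the group means. *Loxl1* made up 56.7% ± 7.74 (SD, n = 3) of this pool in control retinas and 43.8% ± 4.47 in *Yap* cKO retinas, while *Loxl2* made up 21.3% ± 3.63 and 33.1% ± 3.86. The TPM of *Loxl1* was 3.79, 2.12 and 2.37 times that of *Loxl2* in the controls and 1.11, 1.23 and 1.70 times in the *Yap* cKO retinas.

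**Figure D3:**
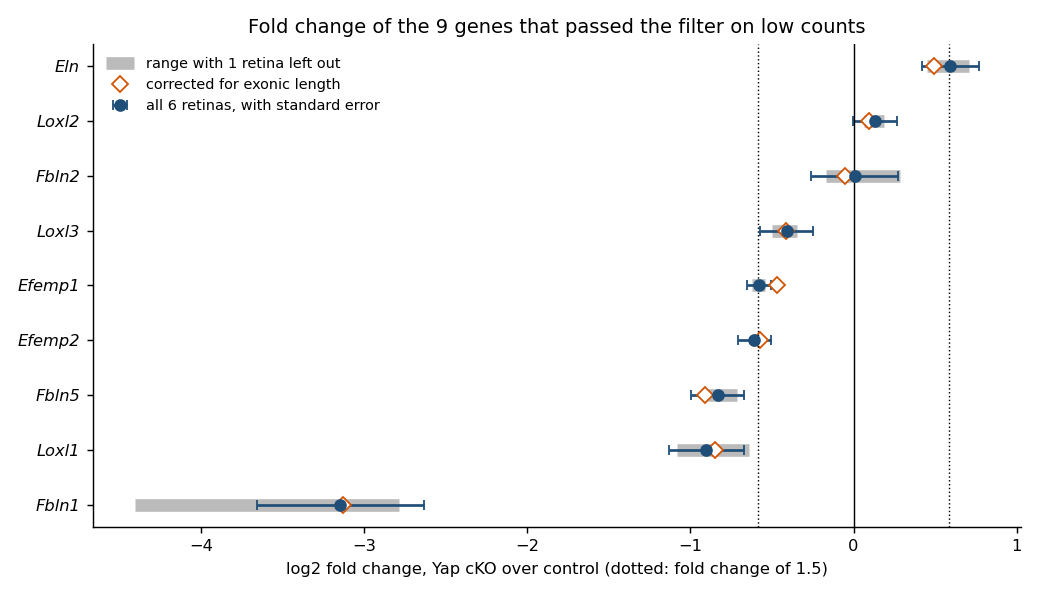
Log2 fold change of the 9 genes that passed the filter, *Yap* cKO over control (horizontal axis), from the fit of all 6 retinas (blue, with standard error), with the correction for exonic length (orange diamonds) and as the range over fits without 1 retina (grey bars). *Fbln1*, at -3.15 with a range of -4.41 to -2.79, lies apart from the rest, *Efemp1* and *Efemp2* sit on either side of the dotted line at a fold change of 1.5, and the range of *Fbln2* spans 0.

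The genes whose levels across the 6 retinas were most like those of *Fbln1*, the member with the largest fold change, came from log2 CPM centred on each gene's mean. By Euclidean distance over the 6 retinas, among 12216 tested genes with at least 5 TPM in 1 group, the nearest 8 were *Optc* (distance 0.625), *Mfap4* (0.944), *Cldn2* (1.06), *Ltbp2* (1.17), *Fmod* (1.44), *Gpx3* (1.45), *Npvf* (1.73) and *Slc26a4* (1.85). *Optc* (opticin, a small proteoglycan of the vitreous) stood at 50.2, 45.6 and 48.2 TPM in controls against 2.86, 8.39 and 2.44 TPM. *Mfap4*, a microfibril-associated protein, stood at 16.9, 11.5 and 12.9 TPM against 0.977, 6.82 and 0.685 TPM. Like *Fbln1*, both were highest in YR713 among the *Yap* cKO retinas, at 3.17 times the mean of the other 2 for *Optc* and 8.20 times for *Mfap4*. The nearest genes were found by the same comparison as *Fbln1* and are a description, with no test.

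**Figure D4:**
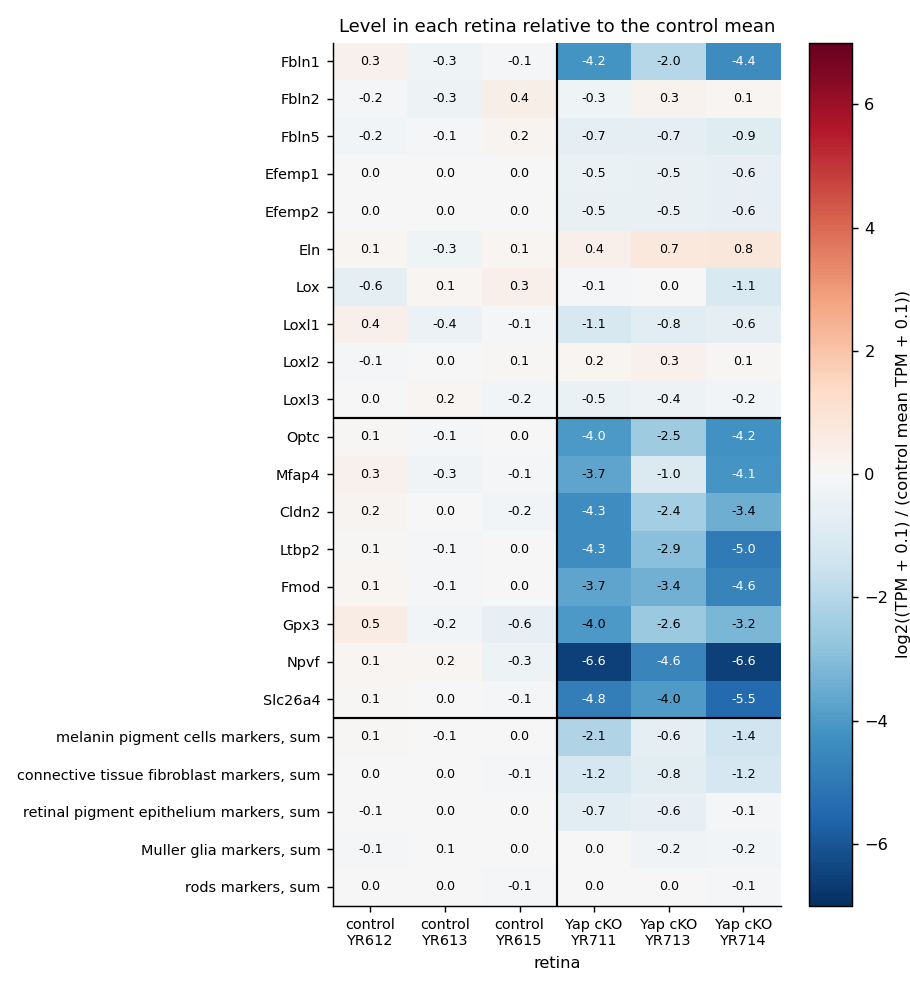
Level in each retina relative to the control mean, as log2((TPM + 0.1) / (control mean TPM + 0.1)), for the 10 genes (top), the 8 genes nearest to *Fbln1* (middle) and the summed markers of 5 cell types (bottom). Blue is lower and red is higher. The 5 are melanin pigment cells, connective tissue fibroblasts, retinal pigment epithelium, Müller glia and rods. The other marker lists are not shown, among them the ciliary non-pigmented epithelium, whose sum overlapped between the groups. *Fbln1* is -4.2, -2.0 and -4.4 in *Yap* cKO retinas, the 8 nearest genes are least low in YR713, and the other fibulins stay above -1 in every *Yap* cKO retina.

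Of the 8 nearest genes, 4 (*Optc*, *Mfap4*, *Cldn2* and *Slc26a4*) stood on the list of 10 markers of the ciliary non-pigmented epithelium. The list was made with earlier results of these data known, and the nearest genes come from the same comparison as *Fbln1*. Their overlap is a description, with no test. Of that list 9 genes were tested and 3 were called, *Optc*, *Cldn2* and *Slc26a4*, all lower (edgeR's quasi-likelihood test). Not called were *Opcml*, *Wfdc1*, *Slc4a5*, *Zic1* and *Aqp1*, with log2 fold changes of 0.23, -0.43, -0.27, -0.46 and 0.29, and *Mfap4*. The list summed to 365 to 379 TPM in control and 319 to 400 TPM in *Yap* cKO retinas, and most of that sum was *Aqp1*, at 224 to 238 and 262 to 316 TPM. *Otos* was listed at no more than 0.211 TPM in any retina, and the 9 other markers had at least 4.93 TPM in every control retina. The 7 melanin pigment cell markers summed to 81.9, 75.0 and 76.6 TPM in controls and to 17.9, 50.6 and 29.0 TPM in *Yap* cKO retinas, without overlap, and 1 of them, *Pmel*, was called lower. Like *Fbln1*, this sum was highest in YR713 among the *Yap* cKO retinas, although *Oca2* was slightly higher in YR714. The 10 connective tissue fibroblast markers summed to 24.3 to 26.2 TPM in controls and 11.2 to 14.5 TPM in *Yap* cKO retinas, with *Ogn* the 1 called gene of 7 tested. Within that list, *Ogn* (9.08 to 12.5 TPM), *Pdgfra* (7.06 to 7.56 TPM), *Col1a2* (3.09 to 4.37 TPM) and *Fap* (1.59 to 2.55 TPM) made up most of the sum in controls. In *Yap* cKO retinas *Ogn* had 1.28 to 2.42 TPM and *Col1a2* had 0.577 to 1.06 TPM, both without overlap. *Fap* had 0.802 to 1.68 TPM there and *Pdgfra* 6.365 to 8.64 TPM, and both overlapped the controls, so the list did not fall as a whole. The other 6 genes were each below 1 TPM in every retina, apart from *Dcn* at 1.48 TPM in control YR612. The part that cells of the ciliary epithelium, pigment cells, fibroblasts or lens have in the levels of *Fbln1*, *Fbln5*, *Efemp1*, *Efemp2* or *Loxl1* was not tested.

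Markers of the retinal pigment epithelium summed to 1562 to 1654 TPM in controls and to 976, 1089 and 1494 TPM in *Yap* cKO retinas. The largest part was *Rlbp1*, also a listed Müller glia marker, at 908 to 967 TPM in controls and 718 to 789 TPM in *Yap* cKO retinas. *Rpe65* had 70.5 to 77.5 TPM in controls and 14.3, 30.7 and 68.55 TPM in *Yap* cKO retinas. Like *Rpe65*, *Ttr*, *Rgr*, *Lrat* and *Rdh5* were lowest in YR711 and highest in YR714 among *Yap* cKO retinas, whereas *Best1* was highest in YR713. The 8 lens markers summed to 9.34, 5.41 and 18.5 TPM in controls and to 4.69, 5.23 and 3.83 TPM in *Yap* cKO retinas, with *Lim2* at 0 in every retina. These sums did not overlap, but control YR613 and *Yap* cKO YR713 were close. Control YR615 stood out, with *Cryaa* at 0.730, 0.843 and 5.64 TPM and *Cryba1* at 0.475, 0.458 and 4.25 TPM in the controls. Markers of Müller glia summed to 4536 to 4888 and 4029 to 4595 TPM, those of rods to 51470 to 54870 and 48440 to 52610 TPM, those of mural cells to 104 to 110 and 92.8 to 121 TPM, and those of endothelial cells to 200 to 215 and 172 to 236 TPM. In none of these 6 lists was a gene called by edgeR's quasi-likelihood test, by DESeq2, by edgeR's likelihood ratio test or by limma-voom. At an unadjusted p under 0.05 by the quasi-likelihood test were 2 of 7 tested pigment epithelium, 3 of 4 lens and 4 of 9 Müller glia genes. Among rod, mural and endothelial genes there were 0 of 6, 2 of 8 and 2 of 8. The share of all tested genes at that unadjusted p was not computed, so nothing is read from these counts.

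The other genes of the elastic fibre pathway, 51 genes listed by role, place the family in its surroundings. Of these, 45 were tested and 4 were called, *Fn1* as a higher gene and *Fbn1*, *Ltbp2* and *Pcolce* as lower genes, against the 0.796% of all tested genes given above. By the adjusted p alone 8 passed, 1 higher and 7 lower, and the additional 4 were all under the TPM minimum. Over all tested genes, 1.49% passed by the adjusted p alone in either direction and 0.989% as lower genes. The median log2 fold change of the 45 genes was 0.017, with 23 above and 22 below 0. Some of these genes were known from earlier results of these data when the lists were made.

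The nearest relatives of the family were *Fbln7*, *Hmcn1*, *Hmcn2* and *Loxl4*, all under 5 TPM. *Fbln7*, a further short fibulin, had 3.66, 2.53 and 3.06 TPM in controls and 1.31, 1.35 and 1.36 TPM in *Yap* cKO retinas. The groups did not overlap, and the log2 fold change was -1.26 ± 0.21 (standard error) at an adjusted p of 0.0246 by the edgeR test, short only of the TPM minimum. The large hemicentins, which share the fibulin domain, had log2 fold changes of -0.048 for *Hmcn1* (adjusted p = 0.905 by the edgeR test) and 0.89 for *Hmcn2* (adjusted p = 0.0602). *Loxl4* had 0.52 (adjusted p = 0.393 by the edgeR test).

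Of 16 microfibril and elastin-binding proteins, 13 were tested and 2 were called, both lower. *Fbn1* (fibrillin-1, the main microfibril protein) had 8.11, 9.998 and 7.51 TPM in controls and 3.90, 3.79 and 3.03 TPM in *Yap* cKO retinas, without overlap. Its log2 fold change was -1.31 ± 0.13 (standard error) at an adjusted p of 0.00223 by the edgeR test. *Ltbp2*, a latent TGF-beta binding protein found on microfibrils of the ciliary zonule, had 7.19, 6.33 and 7.11 TPM in controls and 0.249, 0.814 and 0.125 TPM in *Yap* cKO retinas. All *Yap* cKO retinas lay far below the controls, with a log2 fold change of -4.08 ± 0.40 (standard error) at an adjusted p of 0.00223 by the edgeR test, and YR713 was again the highest of them. Without YR713 the value was -5.25, and the fits without 1 retina reached -3.69 at the other end. *Fbn1* and *Ltbp2* were called in all 6 fits that left out 1 retina. *Mfap4*, with a log2 fold change of -2.25 (standard error 0.59), was not called in the fit of all 6 retinas (adjusted p = 0.0917 by the edgeR test). *Mfap4* was called without control YR613, without *Yap* cKO YR714, and without *Yap* cKO YR713, where its value was -4.09, as well as with no filter on low counts, by edgeR's likelihood ratio test and by limma-voom.

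The list of pro-lysyl oxidase processing and copper supply had 8 tested genes of 9, with 1 called higher and 1 lower. *Pcolce*, an enhancer of the proteinase that processes procollagens, had 13.9, 13.6 and 13.1 TPM in controls and 2.79, 5.50 and 5.63 TPM in *Yap* cKO retinas. The groups stood well apart, with a log2 fold change of -1.59 ± 0.23 (standard error) at an adjusted p of 0.0119 by the edgeR test, and *Pcolce* was not called without control YR612 or control YR615. *Fn1* (fibronectin, on which lysyl oxidase is activated) had 12.1, 10.2 and 11.97 TPM in controls and 22.1, 23.1 and 15.8 TPM in *Yap* cKO retinas. It was higher in every *Yap* cKO retina, with a log2 fold change of 0.77 ± 0.14 (standard error) at an adjusted p of 0.0332 by the edgeR test, and it was called in 2 of the 6 fits that left out 1 retina, those that dropped YR613 or YR714. With the length correction *Fn1* was at 0.57, below the fold change minimum. *Bmp1*, the proteinase that releases active lysyl oxidase, and the copper carriers *Atp7a*, *Atox1* and *Slc31a1* were not called, with log2 fold changes between -0.27 and 0.56.

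Of 8 tested ADAMTS and ADAMTSL genes of the microfibril, 0 were called by edgeR's quasi-likelihood test, DESeq2, edgeR's likelihood ratio test or limma-voom, and 3 had an unadjusted p under 0.05. Of 6 tested elastin-degrading proteases of 8, 0 were called by the same 4 tests, and 1 had an unadjusted p under 0.05. Nothing is read from these counts at an unadjusted p, since the share of all tested genes was not computed. The list of fibrillar collagens that lysyl oxidases cross-link held 6 genes of that class, and all 6 were tested and under the TPM minimum. Of these, *Col1a2*, *Col5a1* and *Col11a1* met the adjusted p criterion, against 0.989% of all tested genes as lower genes. Their log2 fold changes were -2.16, -1.84 and -1.14, at adjusted p-values of 0.00236, 0.0104 and 0.0221 by edgeR's quasi-likelihood test. *Col1a1*, *Col3a1* and *Col5a2*, in contrast, had log2 fold changes between -0.0042 and 0.26.

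**Figure D5:**
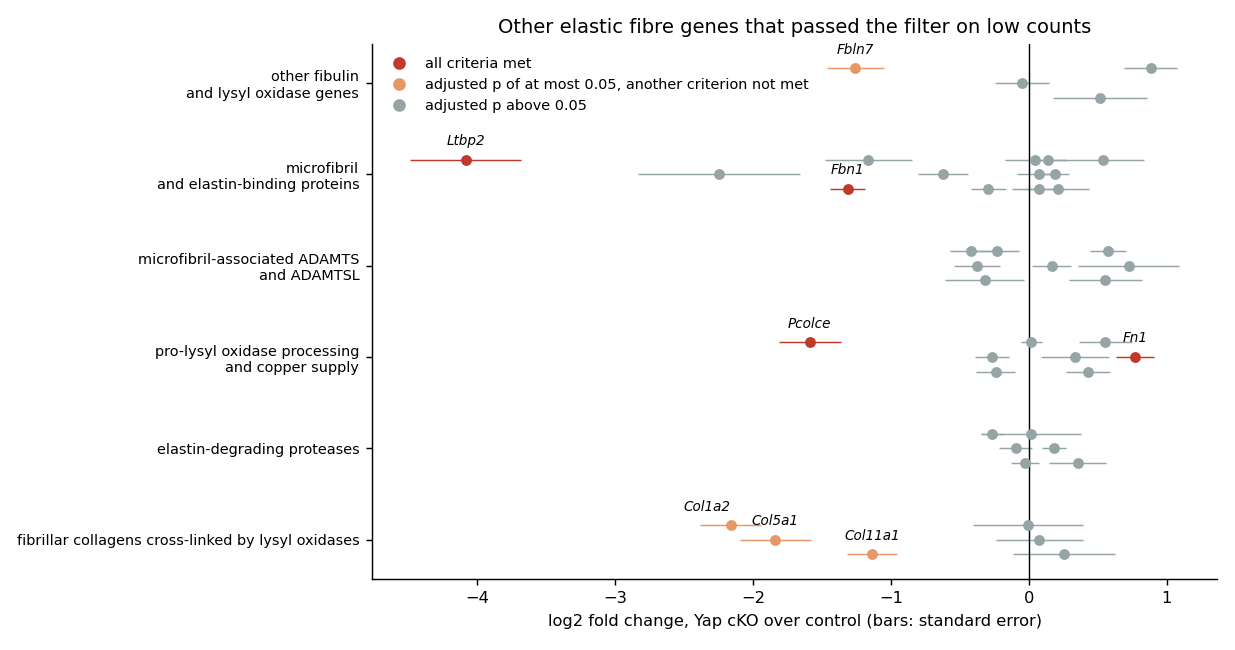
Log2 fold change, *Yap* cKO over control, with standard error, of the 45 other elastic fibre genes that passed the filter on low counts, by list. *Ltbp2*, *Fbn1* and *Pcolce* (red, left of 0) and *Fn1* (red, right of 0) met every criterion, *Fbln7*, *Col1a2*, *Col5a1* and *Col11a1* (orange) met the adjusted p and fold change criteria but not the TPM minimum, and most genes lie within 1 of 0.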

How the data were processed

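Gene counts from retinas of 3 control and 3 *Yap* cKO mice were used. The authors mapped paired-end reads of stranded libraries to GRCm38 (STAR 2.7.3a in the submitters' processing notes) and counted fragments on exons with featureCounts 1.6.2, strand setting 2. The table header names annotation release 98. The deposited values are counts without normalization. The table also gives each gene's exonic length, from which TPM was computed here.

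With R 4.3.3 and edgeR 4.0.16, genes were filtered with filterByExpr, scaled by TMM (factors 0.986 to 1.02) and compared between *Yap* cKO and control by the quasi-likelihood test, with p-values of 16575 genes adjusted after Benjamini and Hochberg. The common dispersion was 0.0126. The 3 criteria (adjusted p of at most 0.05, fold change of at least 1.5, mean of at least 5 TPM in 1 group) follow the study's methods. Those methods name edgeR but not which of its tests was used, so the genes called here need not be those of the study. Alternatives used other size factors, DESeq2 1.42.0, edgeR's likelihood ratio test, limma-voom (limma 3.58.1), other filters and minimums, offsets that remove each retina's loess trend (span 0.3) against exonic length, and fits without 1 of the retinas. The fit was tested on simulated data.

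The members and the gene lists were chosen with earlier results of these data known. By the rule for names, every member was named, the partner genes that were called, *Fbln7*, *Hmcn1*, *Hmcn2* and *Loxl4*, and the 8 genes nearest to the member with the largest fold change (log2 CPM, prior count 2). *Aqp1*, *Otos*, *Pmel*, *Ogn*, *Pdgfra*, *Fap*, *Dcn*, *Oca2*, *Lim2*, *Bmp1*, *Atp7a*, *Atox1*, *Slc31a1* and the collagens were named after their values were seen. So were the markers *Opcml*, *Wfdc1*, *Slc4a5*, *Zic1*, *Rlbp1*, *Rpe65*, *Ttr*, *Rgr*, *Lrat*, *Rdh5*, *Best1*, *Cryaa* and *Cryba1*. With 3 retinas against 3, the smallest two-sided p of an exact permutation test is 0.1, so none was run for single genes.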

Additional observations from a re-analysis of the deposited data

How the results depend on the processing

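No paired analysis was possible because the sample labels name no litter, sex or batch by which retinas of the 2 groups could be paired. Against 2 members called, the correction for gene length left 1, and leaving out 1 retina gave 0 to 4, with 0 without control YR612 or YR615, 1 without *Yap* cKO YR713 and 4 without control YR613. Against 4 partner genes called, 8 were called with no TPM minimum and 2 to 7 with 1 retina left out, with 2 without control YR612 or YR615 and 7 without control YR613. Over the whole table, 132 genes were called, against 263 by DESeq2's Wald test, 291 by edgeR's likelihood ratio test and 369 with no filter on low counts, and 38 to 516 with 1 retina left out (38 without control YR615, 40 without control YR612, 68 without *Yap* cKO YR713, 448 without *Yap* cKO YR714 and 516 without control YR613). The share of called genes that were higher was 26.5%, and 43.3%, 42.3% and 42.3% under those 3 alternatives, 37.2% with no fold change minimum, and 13.2% to 68.2% with 1 retina left out. The retinas differed in how each gene's level, relative to its mean over all retinas, followed exonic length. Spearman's rho across genes was -0.413, 0.172 and -0.405 in controls and 0.396, 0.385 and -0.151 in *Yap* cKO retinas. YR613 and YR714 thus differed in sign from the other retinas of their groups. The part of this trend in the counts was not tested.

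The log2 fold change of *Fbln2* turned negative with library sizes in place of TMM factors (-0.011), with the correction for gene length (-0.054) and within a range of -0.17 to 0.29 with 1 retina left out, which makes 6 changes of sign in all. Of the 126 log2 fold changes of the 9 tested members under the alternatives that move them, 105 kept their direction and their side of the criteria, 8 came to meet the criteria and 7 no longer met them, all in *Fbln1*, *Efemp1*, *Efemp2* and *Loxl1*. The cause of these changes was not tested. Across 17 settings, *Fbln1* was called in 15, *Efemp2* in 12, *Loxl1* in 5, *Efemp1* in 4 and *Fbln5* in 1. *Lox*, with at most 15 fragments per retina, did not pass the filter on low counts.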
